A study of Mus musculus with 9 samples.

Results

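The endothelin and prostaglandin pathway genes described here were 10 genes taken by symbol from the RNA sequencing table of the study, which lists 31167 genes. They comprise the endothelin ligand Edn1, its processing enzyme Ece1, the endothelin receptors Ednra and Ednrb, and 6 genes of prostaglandin handling, namely Pla2g4a, Ptgs1, Ptgs2, Ptges, Hpgd and Ptger4. Expression was measured in primary renal tubular epithelial cells (TECs) from C57BL/6 mice in 3 groups of 3 libraries. Sham TECs were left untreated. H/R TECs were held for 6 h at 1.0% oxygen in medium without glucose and then for 18 h in complete medium, a culture stand-in for ischemia and reperfusion. EGR1OV TECs received a plasmid in which the broadly active CMV promoter drives Egr1, an immediate early transcription factor, transfected at about 50% confluence. The labels give all libraries the same protocol, which covers both transfection and H/R, and do not say whether EGR1OV cells also went through H/R. The study's figure legend lists H/R, the plasmid and no treatment as separate groups. EGR1OV is therefore read here as the plasmid without H/R. No group with an empty plasmid was among those compared, so the effect of Egr1 and that of transfection cannot be told apart. The labels do not say whether the libraries of a group came from separate animals or cultures, so p-values measure the spread between these libraries, which may be technical.

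Endothelin-1 is made as a long precursor, trimmed at its last step by endothelin converting enzyme, and acts on receptors A and B, which in kidney bear on vascular tone and on salt and water handling. Prostaglandins start from arachidonate that phospholipase A2 frees from membranes. The cyclooxygenases turn it into prostaglandin H2, synthases make the single prostaglandins such as PGE2 from it, a carrier takes them back into cells, and a dehydrogenase inactivates them. In kidney the pathway is known for its part in renal blood flow, renin release and water handling.

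Values are FPKM, fragments scaled to exon length and library size, so levels of different genes can be set side by side. The depth behind them, recovered from the steps of low values, was 16183610 to 18384019 reads per library. Changes are differences of log2(FPKM + 1) from a limma fit over the 13985 genes averaging 0.5 FPKM or more, with Benjamini-Hochberg adjusted p-values, and this scale understates the changes of genes with low values. A gene was called when its adjusted p was under 0.05 and its fold change reached 1.2 for H/R against Sham, or 1.3 for EGR1OV against either group. Egr1 checked the labels. It was at 6.09 to 6.91 FPKM for Sham, 7.48 to 8.57 FPKM for H/R and 40.1 to 45.7 FPKM for EGR1OV, a log2 change of 2.56 ± 0.0658 (SE, adjusted p = 2.191e-09) from Sham to EGR1OV. The cells carried epithelial markers, which themselves shifted. Of the 8 tubule epithelium markers tested, 1 was higher (Epcam, mean 76.2 FPKM for Sham and 100.4 for EGR1OV) and 3 were lower in EGR1OV than in Sham (Krt8, 1014 and 618 FPKM, Krt18 and Krt19), and their sum ran from 1973 to 2012 FPKM for Sham, 1828 to 1912 for H/R and 1272 to 1379 for EGR1OV. Of 6 proximal tubule markers, Havcr1, an injury-induced gene, made up most of the sum (107.7 to 121.9 FPKM in Sham), Lrp2 was at 3.51 to 3.67 FPKM, Aqp1 at 1.23 to 1.43 FPKM and Cubn at 0.503 to 0.572 FPKM, while Slc34a1 and Slc5a2 reached at most 0.0362 and 0.0845 FPKM in any library. The 3 proximal markers tested (Havcr1, Lrp2 and Aqp1) were all lower in EGR1OV than in Sham. Aqp1, with a mean of 0.368 FPKM for EGR1OV, passed the 0.5 FPKM filter through Sham and H/R. Umod of the thick limb was listed at 0 in all libraries. Loop and distal tubule markers (4 genes with Umod) summed to means of 0.0561 FPKM for Sham, 0.0444 for H/R and 0.270 for EGR1OV. Collecting duct markers (4 genes) summed to means of 1.80 FPKM for Sham, 1.58 for H/R and 1.54 for EGR1OV. The stromal and smooth muscle marker Acta2 was the most abundant marker, with a mean of 2947 FPKM for Sham, 2743 for H/R and 1131 for EGR1OV (log2 change from Sham to EGR1OV -1.38, adjusted p = 3.572e-09). Of the 5 fibroblast and stromal markers tested, 1 was higher and 1 lower in EGR1OV than in Sham, and 3 were higher in H/R than in Sham. Summed macrophage markers (10 genes, none at 0 in all libraries of a group) ran from 140.8 to 145.1 FPKM for Sham, 116.8 to 123.9 FPKM for H/R and 22.2 to 26.7 FPKM for EGR1OV. Of the 8 macrophage markers tested, 8 were lower in EGR1OV than in Sham, 7 were lower in EGR1OV than in H/R, and 2 were lower in H/R than in Sham. Mrc1, with a mean of 0.0506 FPKM for EGR1OV, passed the filter through Sham and H/R. Over all genes tested, 9.87% were called higher and 6.51% lower in EGR1OV against Sham. The share called lower in EGR1OV against H/R was 6.94%. In H/R against Sham 1.6% were called higher and 2.65% lower. The part of these marker shifts in the changes below was not tested. In bulk RNA, fewer cells of a type and less RNA per cell cannot be told apart.

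Of the 10 genes, 8 passed the filter on low values, and the receptors Ednra and Ednrb did not. In H/R against Sham 2 of the 8 were called (background over all genes tested 4.25%), Ptgs2 higher (background 1.6%) and Ptgs1 lower (background 2.65%). Here 5 of the 8 had groups that did not overlap, against 33.6% of all genes tested. In EGR1OV against Sham 5 of the 8 were called (background 16.4%), with Ptges, Ptgs2 and Pla2g4a higher (background 9.87%) and Edn1 and Hpgd lower (background 6.51%). Groups did not overlap for 7 of the 8, against 55.7%. In EGR1OV against H/R 6 of the 8 were called (background 18.9%), 4 higher (background 11.9%) and 2 lower (background 6.94%). These were the 5 genes just named, in the same directions, and Ece1, which was higher. Hpgd passed the filter only through Sham and H/R, so its place in both EGR1OV counts is a description. Again 7 of the 8 had groups that did not overlap, against 58.6%. The median log2 change of the 8 genes was 0.14, 0.31 and 0.38 in these comparisons, beside -0.03, 0.02 and 0.05 over all genes tested. The comparisons share groups, so they are not independent of each other. The 10 genes were chosen with earlier results of these data known. Their counts and medians beside the background are therefore a description and no sign of enrichment.

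**Figure D1:**
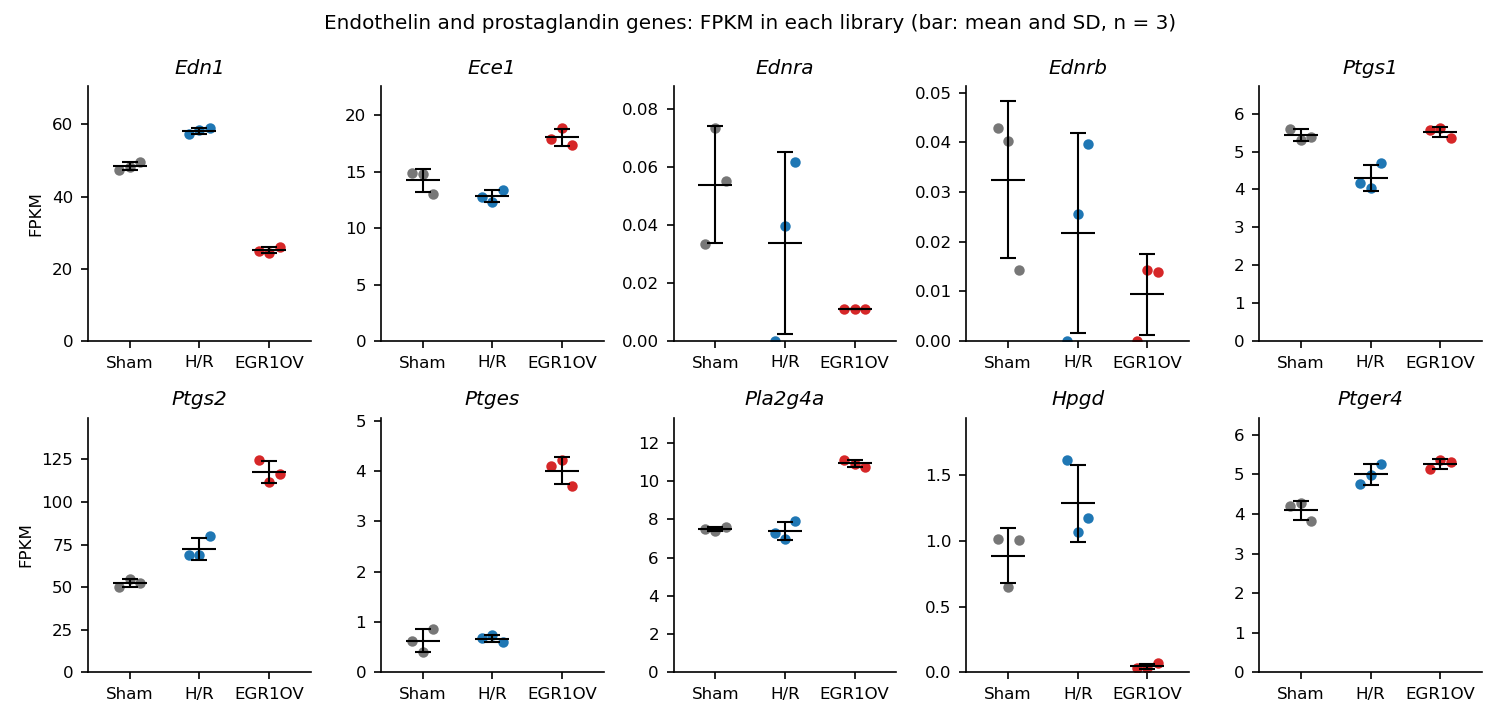
FPKM (y axis, linear from 0, one scale per gene) of the 10 genes in each library of Sham, H/R and EGR1OV (x axis); points are libraries, bars the mean and SD of 3. Edn1 and Hpgd sat lowest in EGR1OV, Ptgs2, Ptges and Pla2g4a highest, and Ednra and Ednrb reached at most 0.0733 FPKM.

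**Figure D2:**
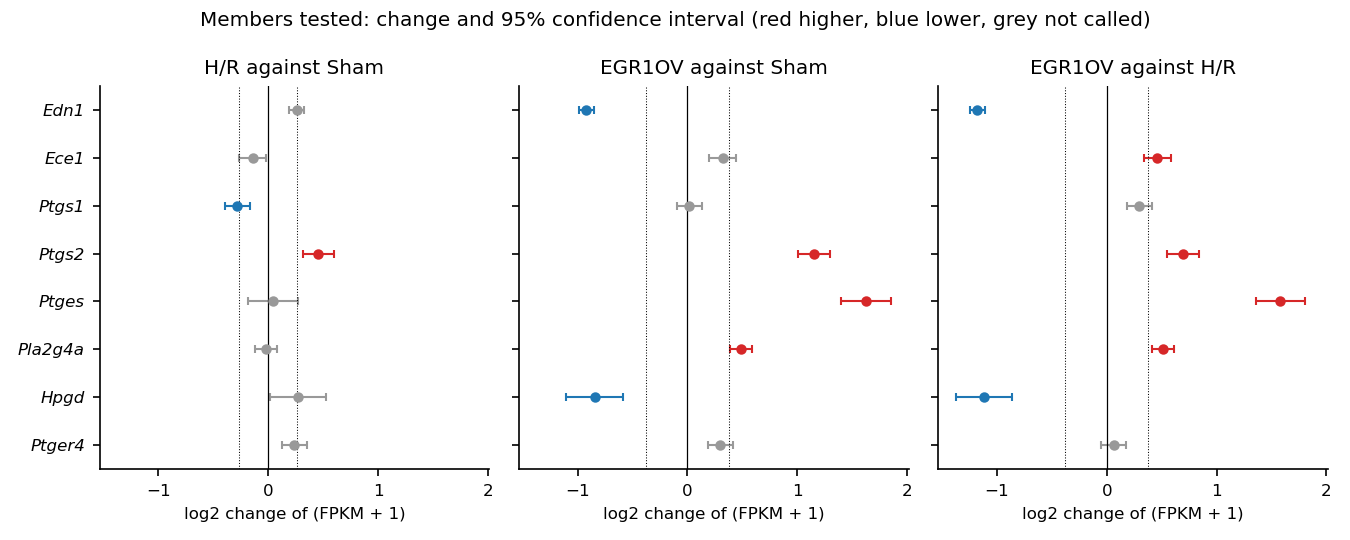
Log2 change of (FPKM + 1) for the 8 genes tested (rows) in the 3 comparisons (panels), with 95% confidence intervals; the solid line marks no change and the dotted lines the fold threshold of each comparison. In H/R against Sham 2 genes were called, and in the EGR1OV comparisons 5 and 6.

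Edn1 (ENSMUSG00000021367, chromosome 13, 42301476 to 42307990, + strand, GRCm38, 5 exons after merging of transcripts, 2139 exon bases) encodes preproendothelin-1, the precursor of the vasoconstrictor peptide. The 250 bases before its start are shown because Edn1 was the only member that stood above Sham in H/R and below Sham in EGR1OV with an adjusted p under 0.05 each time. The sequence is from RefSeq (GRCm38.p6), read 5′ to 3′ toward the gene, and capitals mark matches to GTGGGNG, a short form of the Egr1 motif, on either strand.
Edn1 promoter, chr13:42301226-42301475, + strand: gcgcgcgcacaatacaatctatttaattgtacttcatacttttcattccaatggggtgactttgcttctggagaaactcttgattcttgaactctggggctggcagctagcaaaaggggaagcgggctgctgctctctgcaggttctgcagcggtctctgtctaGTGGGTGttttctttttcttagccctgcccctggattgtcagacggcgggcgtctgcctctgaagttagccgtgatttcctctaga
The marked match began 86 bases before the start. On the same terms a match was found in the first window of 5 of the 10 genes (Edn1, Ece1, Ptgs2, Ptges and Hpgd), against 27.8% of 27025 genes in the RefSeq table, and these 5 included genes that were higher and genes that were lower in EGR1OV. The longer Egr1 motif GCGNGGGCG, present in 4.65% of those genes, was in the first window of none of the 10. The interferon response motif (3.04% of genes) matched in Edn1 on the opposite strand, 78 bases before the start and next to the Egr1 match without overlap. The hypoxia motif ACGTG, present in 16.6% of genes, was in the first window of none of the 10. A match is only a string of letters and says nothing of binding.

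Edn1 was at 47.5, 48.3 and 49.6 FPKM for Sham, at 57.4, 58.4 and 58.9 FPKM for H/R and at 25.0, 24.4 and 26.0 FPKM for EGR1OV. All H/R libraries lay above all Sham libraries, and all EGR1OV libraries lay below both groups, with no overlap anywhere. From Sham to EGR1OV Edn1 fell by 0.92 ± 0.0299 (SE) on the log2 scale (adjusted p = 1.24e-08), to 0.519 of the Sham mean in plain FPKM. From H/R to EGR1OV it fell by 1.18 ± 0.0299 (adjusted p = 1.874e-09), to 0.432 of the H/R mean. In H/R against Sham the log2 change was 0.26 ± 0.0299 with adjusted p = 0.00151, just short of 1.2-fold on this scale, so Edn1 was not called there, while the ratio of plain FPKM means was 1.202. It passed that threshold with a pseudocount of 0.1 (0.2648), under median-ratio scaling (0.2928) or quantile normalization (0.281), with limma voom on recovered reads (0.2663), and without Sham replicate 3 (0.2765) or H/R replicate 1 (0.2709). Endothelial cells are a known source of Edn1, and summed endothelial markers (8 genes, none at 0 in all libraries of a group) were 15.9 to 16.7 FPKM for Sham, 16.03 to 17.0 FPKM for H/R and 12.7 to 13.8 FPKM for EGR1OV. Of the 5 endothelial markers tested, 0 were called in H/R against Sham (background 4.25%). In EGR1OV 1 was lower against Sham (Pecam1, background 6.51%). Against H/R 2 were lower in EGR1OV (Pecam1, log2 change -0.43, and Cdh5, -0.39, background 6.94%). The part of the endothelial markers in the Edn1 values was not tested. An antisense gene, Gm47118, shares 35 exon bases with Edn1.

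Ece1 (ENSMUSG00000057530, chromosome 4, 137862237 to 137965229, + strand, 23 merged exons) encodes endothelin converting enzyme 1, the protease that releases the active peptide. It was at 14.8, 14.8 and 13.1 FPKM for Sham, 12.7, 12.4 and 13.4 FPKM for H/R and 17.9, 18.8 and 17.3 FPKM for EGR1OV. Sham and H/R overlapped, and EGR1OV lay above both. Ece1 rose by 0.46 ± 0.0545 (SE) on the log2 scale from H/R to EGR1OV (adjusted p = 9.947e-05). Against Sham the EGR1OV change was 0.32 ± 0.0545 (adjusted p = 0.001093), short of 1.3-fold, and H/R against Sham gave -0.14 ± 0.0545 (adjusted p = 0.1337). With quantile normalization the EGR1OV against H/R change was 0.3337, also short of 1.3-fold. The peptide's gene and the enzyme's gene thus stood on opposite sides of Sham in EGR1OV. The log2 ratio of Edn1 to Ece1 within a library was 1.70 ± 0.127 (SD, n = 3) for Sham, 2.099 ± 0.0505 for H/R and 0.46 ± 0.101 for EGR1OV. None of the 3 groups overlapped, and each pair of groups gave p = 0.1 in an exact two-sided permutation test, the smallest that 3 against 3 libraries allow.

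The endothelin receptors were near the limit of detection. Ednra (ENSMUSG00000031616, chromosome 8, 77663031 to 77724464, - strand), the receptor A gene, was at 0.0333, 0.0733 and 0.0553 FPKM for Sham, 0, 0.0397 and 0.0618 FPKM for H/R and 0.0110, 0.0112 and 0.0109 FPKM for EGR1OV. These values stand for 15 reads over the Sham libraries, 10 over H/R and 3 over EGR1OV, and a library needs 3 reads, 0.0298 to 0.0339 FPKM, to exceed what a count of 0 allows. The read rate in EGR1OV was 0.202 of that in Sham (95% exact interval 0.0376 to 0.716, counting error only). Ednrb (ENSMUSG00000022122, chromosome 14, 103814625 to 103844402, - strand), the receptor B gene, was at 0.0428, 0.0403 and 0.0142 FPKM for Sham, 0, 0.0255 and 0.0396 FPKM for H/R and 0, 0.0143 and 0.0139 FPKM for EGR1OV. No Ednrb library held more than 3 reads, all groups overlapped, and no difference was detectable at this depth. Among 5 other endothelin genes, Edn2, Edn3, Ece2 and Kel stayed at or below 0.127 FPKM and 3 reads. Mme, the endopeptidase neprilysin that degrades endothelins among other peptides, was at 2.90 ± 0.112 FPKM (SD, n = 3) for Sham, 3.47 ± 0.367 for H/R and 2.32 ± 0.0833 for EGR1OV, and was lower in EGR1OV than in H/R by a log2 change of -0.43 (adjusted p = 0.0004373).

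Pla2g4a (ENSMUSG00000056220, chromosome 1, 149829618 to 149961290, - strand, 20 merged exons) encodes cytosolic phospholipase A2, the enzyme that frees arachidonate. It was at 7.49, 7.37 and 7.61 FPKM for Sham, 7.27, 6.96 and 7.90 FPKM for H/R and 11.1, 10.9 and 10.8 FPKM for EGR1OV. Sham and H/R overlapped and EGR1OV lay above both. Pla2g4a rose by 0.49 ± 0.0437 (SE) on the log2 scale from Sham to EGR1OV (adjusted p = 1.715e-05) and by 0.51 ± 0.0437 from H/R (adjusted p = 1.158e-05). The H/R against Sham change was -0.02 (95% confidence interval -0.12 to 0.08, adjusted p = 0.807). With quantile normalization the EGR1OV against H/R change was 0.3778, short of 1.3-fold.

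Ptgs1 (ENSMUSG00000047250, chromosome 2, 36230426 to 36252272, + strand, 11 merged exons) encodes cyclooxygenase 1, known as the constitutive form. It was at 5.61, 5.32 and 5.38 FPKM for Sham, 4.17, 4.05 and 4.70 FPKM for H/R and 5.57, 5.61 and 5.37 FPKM for EGR1OV. The H/R libraries lay below both other groups, which overlapped. Ptgs1 fell by 0.28 ± 0.0518 (SE) on the log2 scale from Sham to H/R (adjusted p = 0.01117), and the call was lost without Sham replicate 1 (-0.2608), H/R replicate 1 (-0.2618) or H/R replicate 2 (-0.2448), and under median-ratio scaling (-0.2531) or quantile normalization (-0.2439). EGR1OV against Sham gave 0.02 (95% confidence interval -0.10 to 0.14, adjusted p = 0.8063), and EGR1OV against H/R gave 0.30 ± 0.0518 (adjusted p = 0.001096), short of 1.3-fold. Ptgs1 is also a gene of macrophages. The macrophage marker sum was lower in H/R too, with a mean of 120.7 FPKM against 143.1 FPKM in Sham and 2 of 8 markers called lower, and it was 24.0 FPKM in EGR1OV, where Ptgs1 overlapped with Sham. Its part in the Ptgs1 values was not tested. Its exons share 148 bases with Gm43621 on the opposite strand, which was at most at 0.121 FPKM.

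Ptgs2 (ENSMUSG00000032487, chromosome 1, 150100031 to 150108227, + strand, 11 merged exons, 4580 exon bases) encodes cyclooxygenase 2, the inducible form. Its upstream sequence is shown because it was the only gene of the 10 called higher in all 3 comparisons.
Ptgs2 promoter, chr1:150099781-150100030, + strand: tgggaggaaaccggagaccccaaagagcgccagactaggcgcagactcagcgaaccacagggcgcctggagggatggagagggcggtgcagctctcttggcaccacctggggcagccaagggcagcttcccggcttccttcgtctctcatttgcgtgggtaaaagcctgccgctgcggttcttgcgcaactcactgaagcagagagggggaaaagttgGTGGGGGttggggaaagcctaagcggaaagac
The Egr1 match lay 32 bases before the start. The C/EBP motif TTGCNNAA, present in 9.55% of genes, was found in Ptgs2 alone among the 10, 69 bases before the start, apart from the Egr1 match. Neither the stricter nor the looser NF-kB motif searched (in 1.4% and 4.6% of genes) was in this window, nor were the AP-1 motif TGANTCA (6.87%) or the cAMP motifs TGACGT (6.56%) and TGACG (17.9%).

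Ptgs2 was at 50.0, 55.0 and 52.6 FPKM for Sham, 68.7, 69.1 and 79.9 FPKM for H/R and 124.6, 112.0 and 116.7 FPKM for EGR1OV. The groups stood in the order Sham, H/R, EGR1OV with no overlap. It rose by 0.46 ± 0.0637 (SE) on the log2 scale in H/R (adjusted p = 0.003264) and by 1.15 ± 0.0637 in EGR1OV (adjusted p = 6.067e-07) against Sham. In plain FPKM these were 1.38 and 2.24 times the Sham mean. EGR1OV was above H/R by 0.69 ± 0.0637 (adjusted p = 1.856e-05). The value rests on 3767 to 9480 reads per library, the most of any of the 10 genes. Against cyclooxygenase 1, the inducible form was the more abundant in each library: the plain FPKM ratio of Ptgs2 to Ptgs1 was 8.92 to 10.3 for Sham, 16.5 to 17.1 for H/R and 19.97 to 22.4 for EGR1OV. As log2 ratios of FPKM + 1 these were 3.06 ± 0.0997 (SD, n = 3), 3.79 ± 0.0360 and 4.19 ± 0.0832, with p = 0.1 for each pair of groups in the exact permutation test.

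**Figure D3:**
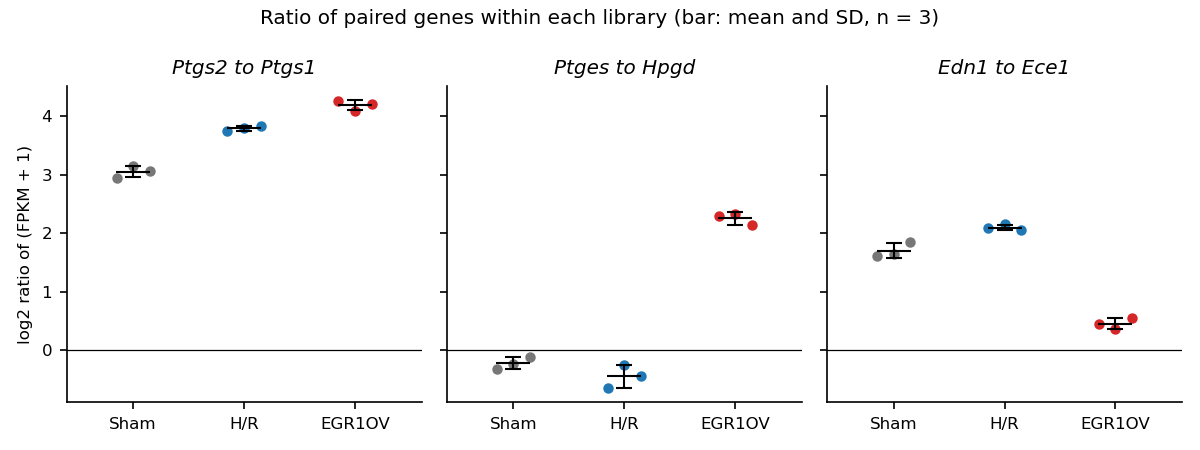
Log2 ratio of (FPKM + 1) of 2 genes within each library (y axis) for Ptgs2 to Ptgs1, Ptges to Hpgd and Edn1 to Ece1 (panels) in Sham, H/R and EGR1OV (x axis); points are libraries, bars the mean and SD of 3, and the line at 0 marks equal levels. Ptges to Hpgd was below 0 in Sham and H/R and above 2 in EGR1OV.

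Ptges (ENSMUSG00000050737, chromosome 2, 30889471 to 30929863, - strand, 6 merged exons) encodes microsomal prostaglandin E synthase 1, the inducible enzyme that makes PGE2 and is coupled to cyclooxygenase 2. Its sequence is shown because it had the largest rise of the 8 genes tested in EGR1OV and the most matches to GTGGGNG. The RefSeq start used lies within the gene's span in the table, not at its end.
Ptges promoter, chr2:30903298-30903547, - strand: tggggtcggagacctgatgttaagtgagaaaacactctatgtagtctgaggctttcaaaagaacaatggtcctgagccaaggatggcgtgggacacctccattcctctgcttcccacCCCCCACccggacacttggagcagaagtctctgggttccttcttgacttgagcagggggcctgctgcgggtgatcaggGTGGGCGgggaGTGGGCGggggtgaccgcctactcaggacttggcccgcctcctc
Matches began 133, 55 and 44 bases before the start, the first of them on the opposite strand.

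Ptges was at 0.619, 0.409 and 0.863 FPKM for Sham, 0.676, 0.733 and 0.602 FPKM for H/R and 4.09, 4.22 and 3.70 FPKM for EGR1OV. These are 28 to 56 reads per library for Sham, 42 to 53 for H/R and 245 to 271 for EGR1OV. Sham and H/R overlapped, while the lowest EGR1OV library was far above the highest of the others. Ptges rose by 1.63 ± 0.1002 (SE) on the log2 scale from Sham to EGR1OV (adjusted p = 1.287e-06) and by 1.58 ± 0.1002 from H/R (adjusted p = 1.465e-06), and these became 2.72 and 2.56 with limma voom on recovered reads. In plain FPKM the EGR1OV mean was 6.35 times the Sham mean and 5.97 times the H/R mean. H/R against Sham gave 0.04 (95% confidence interval -0.18 to 0.27, adjusted p = 0.8242).

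Hpgd (ENSMUSG00000031613, chromosome 8, 56294585 to 56321043, + strand, 7 merged exons) encodes 15-hydroxyprostaglandin dehydrogenase, which starts the breakdown of PGE2. Its sequence is shown because in EGR1OV it moved opposite to Ptges and also held a match to GTGGGNG.
Hpgd promoter, chr8:56294302-56294551, + strand: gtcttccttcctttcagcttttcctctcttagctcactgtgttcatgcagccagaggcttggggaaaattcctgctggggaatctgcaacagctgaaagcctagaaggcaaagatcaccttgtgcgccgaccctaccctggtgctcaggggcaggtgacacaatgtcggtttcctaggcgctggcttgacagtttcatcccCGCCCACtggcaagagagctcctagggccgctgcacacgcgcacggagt
The match lay on the opposite strand, 49 bases before the RefSeq start.

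Hpgd was at 1.01, 0.648 and 1.01 FPKM for Sham, 1.62, 1.07 and 1.17 FPKM for H/R and 0.0358, 0.0364 and 0.0706 FPKM for EGR1OV. Its mean over the 9 libraries passed the filter through Sham and H/R, where it was higher. A gene as low as Hpgd in EGR1OV could pass only by being higher elsewhere. Its lower calls and adjusted p-values are therefore given as a description. In reads this was 75 over the Sham libraries, 112 over H/R and 4 over EGR1OV. All EGR1OV libraries were under the 0.0970 to 0.110 FPKM that 3 reads in a library stand for. The read rate in EGR1OV was 0.0540 of that in Sham (95% exact interval 0.0143 to 0.144, counting error only) and 0.0375 of that in H/R (0.0100 to 0.0988). On the log2(FPKM + 1) scale, which compresses values this low, Hpgd fell by 0.84 ± 0.114 (SE) from Sham (adjusted p = 0.0002583) and by 1.12 ± 0.114 from H/R (adjusted p = 3.706e-05). With limma voom on recovered reads the changes were -3.79 and -4.32. H/R lay above Sham without overlap, with a log2 change of 0.27 ± 0.114 and adjusted p = 0.1547. Hpgd is also known from macrophages. The macrophage marker sum was lower in EGR1OV too, from 140.8 to 145.1 FPKM in Sham to 22.2 to 26.7 FPKM. In H/R the sum was 116.8 to 123.9 FPKM, also below Sham, while Hpgd lay above Sham there. The part of the macrophage markers in the Hpgd values was not tested. The log2 ratio of Ptges to Hpgd was -0.22 ± 0.103 (SD, n = 3) for Sham, -0.44 ± 0.194 for H/R and 2.25 ± 0.105 for EGR1OV. The exact permutation p was 0.1 for EGR1OV against either group and 0.2 for H/R against Sham. With a pseudocount of 0.1 the EGR1OV differences in this ratio, 2.47 from Sham and 2.70 from H/R, became 5.27 and 5.63.

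Ptger4 (ENSMUSG00000039942, chromosome 15, 5206661 to 5244187, - strand, 5 merged exons) encodes EP4, a PGE2 receptor that raises cAMP. It was at 4.20, 4.27 and 3.82 FPKM for Sham, 4.75, 4.98 and 5.27 FPKM for H/R and 5.13, 5.37 and 5.32 FPKM for EGR1OV. Both other groups lay above Sham and overlapped with each other. The log2 change was 0.24 ± 0.0507 (SE, adjusted p = 0.01987) in H/R and 0.30 ± 0.0507 (adjusted p = 0.001063) in EGR1OV against Sham, each short of its fold threshold, and 0.06 (95% confidence interval -0.05 to 0.18, adjusted p = 0.3244) in EGR1OV against H/R. The H/R change passed 1.2-fold with a pseudocount of 0.1 (0.2819), under median-ratio scaling (0.2633) or quantile normalization (0.2764), with limma voom (0.2894), and without H/R replicate 1 (0.2661). Ptger4 shares 1097 exon bases with the genes Ttc33 and Gm15937 on the opposite strand, and no strand setting is given in the sources used here. Ttc33 was at 7.58 ± 0.379 FPKM (SD, n = 3) for Sham, 7.54 ± 0.265 for H/R and 8.82 ± 0.866 for EGR1OV, so the Ptger4 values are uncertain. The other 8 prostanoid receptor genes, among them Ptger1, Ptger2 and Ptger3, did not pass the filter. The highest was Ptger3 at 0.131 FPKM and 13 reads. Ptger4 was thus the only prostanoid receptor gene of these lists above the filter.

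Beyond the 10 genes, 50 further genes of both pathways were listed, of which 25 passed the filter. In H/R against Sham 1 of the 25 was higher and 0 were lower (background 4.25%). In EGR1OV against Sham 9 were higher and 3 lower (background 16.4%), and in EGR1OV against H/R 7 were higher and 2 lower (background 18.9%). The median log2 change of the 25 was -0.03, 0.13 and 0.21. Pla2g4c passed the filter only through EGR1OV, so its place in both EGR1OV counts is a description. These lists were also chosen with earlier results of these data known. Their counts and medians beside the background are therefore a description.

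**Figure D4:**
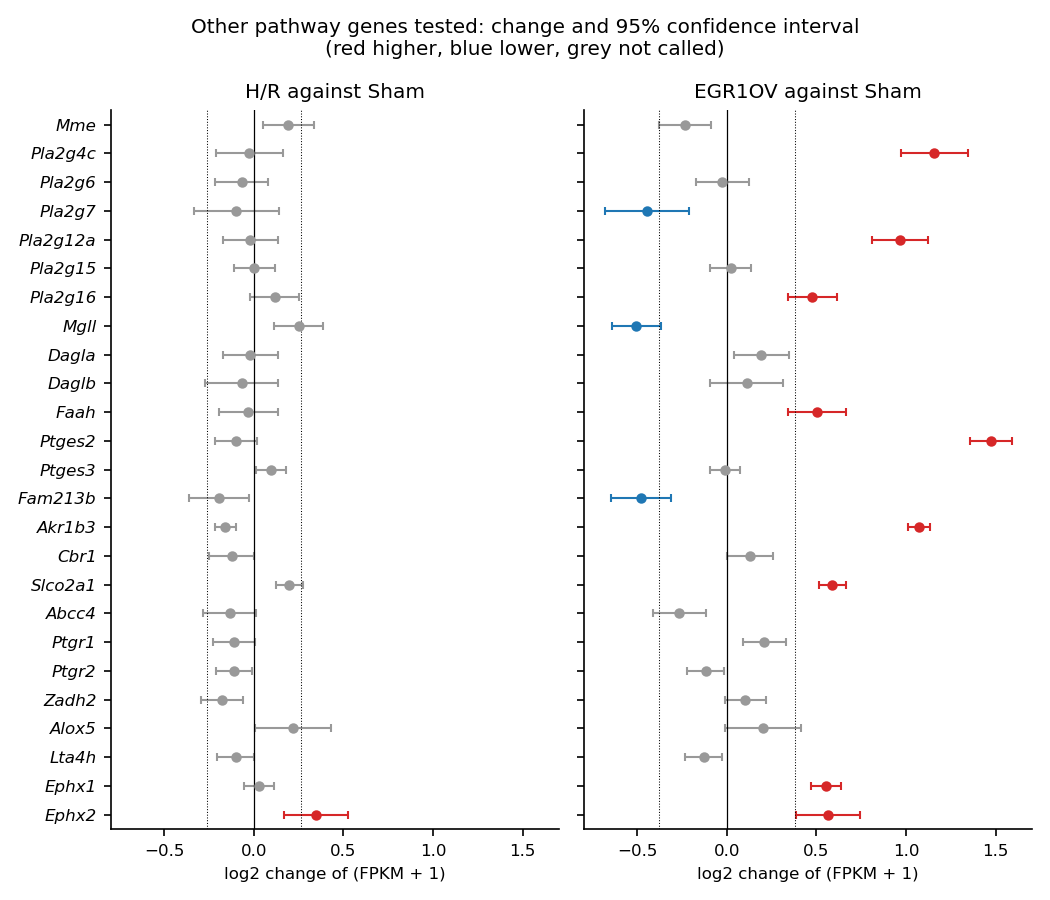
Log2 change of (FPKM + 1) with 95% confidence intervals for the 25 other pathway genes tested (rows) in H/R and EGR1OV against Sham (panels); the solid line marks no change and the dotted lines the fold threshold. In H/R only Ephx2 was called, while in EGR1OV 9 genes were higher and 3 lower, with Ptges2 at 1.47 on this scale. Pla2g4c, at 1.16, passed the filter only through EGR1OV, so its value is a description.

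Among the 15 genes listed as phospholipases and lipases, 10 were tested, and in EGR1OV against Sham 4 were higher and 2 lower (background 9.87% and 6.51%). Pla2g4c, a calcium-independent cytosolic phospholipase A2, had a mean of 0.138 ± 0.00783 FPKM (SD, n = 3) for Sham, 0.120 ± 0.0678 for H/R and 1.54 ± 0.151 for EGR1OV, or 26, 23 and 288 reads. It passed the filter only through EGR1OV, so it had to differ, and although it is among the genes counted as higher, its fitted log2 change of 1.16 is given as a description (11.2 times the Sham mean in plain FPKM). Pla2g12a, a secreted form, rose from 5.18 ± 0.454 to 11.1 ± 0.367 FPKM (log2 change 0.97, adjusted p = 3.389e-06). Mgll, the lipase that cuts monoacylglycerols, fell from 4.17 ± 0.220 to 2.64 ± 0.163 FPKM (log2 change -0.50, adjusted p = 0.0001112), and stood at 5.15 ± 0.362 FPKM in H/R.

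Among 9 prostanoid synthases 5 were tested, and in EGR1OV against Sham 2 were higher and 1 lower (background 9.87% and 6.51%). The filter left out Hpgds, the hematopoietic PGD2 synthase, which was at 0.539 ± 0.0754 FPKM for Sham, 0.408 ± 0.0653 for H/R and 0.144 ± 0.0229 for EGR1OV (175, 136 and 46 reads), and Tbxas1, the thromboxane synthase, at 0.411 ± 0.110, 0.373 ± 0.0726 and 0.252 ± 0.00924 FPKM. In both, all EGR1OV libraries lay below all libraries of the other groups, and neither was tested. Over all genes tested, EGR1OV did not overlap with Sham for 55.7% and with H/R for 58.6%. They were named after their values were seen. Ptges2, microsomal prostaglandin E synthase 2, was at 5.22, 5.36 and 5.80 FPKM for Sham, 5.12, 5.32 and 4.65 FPKM for H/R and 16.9, 16.7 and 17.2 FPKM for EGR1OV. It rose by 1.47 on the log2 scale from Sham to EGR1OV (adjusted p = 1.981e-08), or 3.10 times the Sham mean in plain FPKM. Ptges3, a cochaperone also named as cytosolic PGE synthase, was at 63.6 ± 0.708 FPKM in Sham and 63.2 ± 2.65 in EGR1OV and was not called. Akr1b3, an aldose reductase that can make PGF2α, rose from 19.5 ± 0.348 to 42.1 ± 0.411 FPKM (log2 change 1.07, adjusted p = 1.476e-09). Fam213b, a prostamide and PGF synthase, fell from 3.63 ± 0.249 to 2.33 ± 0.242 FPKM (log2 change -0.48, adjusted p = 0.000672).

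Of 5 genes of transport and breakdown, 1 was called in EGR1OV against Sham (20%, background 16.4%). Slco2a1, the carrier that takes prostaglandins into cells ahead of Hpgd, was at 23.2, 22.8 and 22.9 FPKM for Sham, 25.8, 25.8 and 28.0 FPKM for H/R and 35.4, 34.9 and 35.0 FPKM for EGR1OV. It rose by 0.59 on the log2 scale from Sham to EGR1OV (adjusted p = 7.036e-07), so the carrier and the dehydrogenase moved in opposite directions. Of 8 genes of the lipoxygenase arm and of epoxide hydrolases, 4 were tested. Ephx1, microsomal epoxide hydrolase, rose from 57.5 ± 1.71 to 85.1 ± 3.10 FPKM for EGR1OV (log2 change 0.56, adjusted p = 2.166e-06). Ephx2, the soluble form that breaks down epoxides of arachidonate, was at 0.946 ± 0.148 FPKM for Sham, 1.48 ± 0.164 in H/R and 1.88 ± 0.124 in EGR1OV, with log2 changes of 0.35 (adjusted p = 0.02444) and 0.57 (adjusted p = 0.0003254) against Sham. The Ephx2 call in H/R was lost without Sham replicate 3 or without H/R replicate 3, when 0 of the 25 genes were called.

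Likeness to other genes was read over the 9 libraries, among the 7588 genes averaging 5 FPKM or more, as a description only, since the libraries fall into 3 groups. The genes most like Edn1 were Tubb2b (Pearson's r = 0.998), St8sia2 (0.997) and Plcxd2 (0.997), and 445 genes reached 0.95. Those most like Ptges were AC122397.1 (0.999), Zfp36 (0.998) and Adrm1 (0.995), and 779 genes reached 0.95.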

How the data were processed

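Bulk RNA sequencing of 9 libraries was analysed, and the sample titles gave the groups and replicate numbers. The authors deposited one table of FPKM per gene in which each library has its own column. The submitters' processing notes name Bowtie2 2.2.3, HISAT2 2.1.0, TopHat2 and the build mm9 without saying which step used which. Gene positions in the table, however, were equal to GENCODE M21 (GRCm38) for 94.74% of genes, and 99.83% of identifiers were found there, so positions are given as GRCm38. The counter and any strand setting are not given in the sources used here.

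From the table were computed log2(FPKM + 1), a filter at a mean of 0.5 FPKM, and 1 limma fit (3.58.1, R 4.3.3, lmFit, eBayes with trend, two-sided, Benjamini-Hochberg) over all 9 libraries. A first run on simulated counts, with less spread than these replicates, checked the code only and gives no error rate for these data. FDR and fold thresholds follow the study, with 1.3 added here for EGR1OV against H/R. Low FPKM values were multiples of the value of 1 read, and with GENCODE exon lengths 94.04% of 162952 recovered values of up to 1000 reads were whole within 0.02 reads. The floor was 3 reads. Intervals and floors cover counting error only. All 9 replicate pairs differed by more than sampling noise (chi-square per degree of freedom 1.97 to 3.59), so none were merged.

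The 10 genes and the lists were chosen with earlier results of these data known. All 10 were named, and from each other list up to 3 genes called in any comparison, by size of change. Ptges3, not called, and Hpgds and Tbxas1, not tested, were named after their values were seen. Likeness was read for Edn1 by name, and for the members with the largest called rise and fall in EGR1OV against Sham. On log2(FPKM + 1) the largest rise was that of Ptges. The largest fall was that of Edn1 itself (-0.92), which passed Hpgd (-0.84). In plain FPKM Hpgd fell further, to 0.0535 of Sham against 0.519. Promoters were taken from RefSeq for 10 of the 10 genes, as the 250 bases before each start. Alternatives were another pseudocount, filter, scaling, fold threshold, variance model or sample set, a replicate block, limma voom on recovered reads, and each library left out. Other steps used scipy 1.17.1, pandas 2.3.3 and matplotlib 3.10.9 under Python 3.11.15.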

Additional observations from a re-analysis of the deposited data

Results flagged for a closer look

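Edn1 was flagged because its changes against Sham had opposite signs in the 2 treated groups, 0.26 in H/R (adjusted p = 0.00151) and -0.92 in EGR1OV (adjusted p = 1.24e-08), each with a limma adjusted p under 0.05. The difference itself, EGR1OV against H/R, was tested in the same fit and was -1.1798 on the log2 scale (adjusted p = 1.874e-09). On log2(FPKM + 1) the H/R change was just below the 1.2-fold threshold, while the ratio of plain FPKM means was 1.202 and 6 of 18 alternatives passed the threshold. Both contrasts share the Sham libraries.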

How the results depend on the processing

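Of 423 recomputed changes of the 8 genes, 398 kept their direction and their side of the threshold, 7 lost a call, 11 gained one and 7 changed sign. The sign changes were Ptges in H/R against Sham without Sham replicate 2 (-0.0567), Pla2g4a in H/R against Sham with median-ratio scaling (0.0082), quantile normalization (0.0094) or without H/R replicate 2 (0.015), Ptgs1 in EGR1OV against Sham with median-ratio scaling (-0.0099) or quantile normalization (-0.0608), and Ptger4 in EGR1OV against H/R with quantile normalization (-0.0489). None of these was called. With a library left out, these H/R changes ran from -0.0567 to 0.145 for Ptges and from -0.065 to 0.015 for Pla2g4a. In H/R against Sham the members called, 2, became 4 with a pseudocount of 0.1, limma voom or no fold threshold, 0 at 2-fold, and 1 to 3 with a library left out (1 without Sham replicate 1 or H/R replicate 2). The other pathway genes called there, 1, became 2 with a pseudocount of 0.1, median-ratio scaling, quantile normalization or voom, 4 with no fold threshold, and 0 with no filter, a mean of at least 5 FPKM, only the groups compared or 2-fold, and were 0 to 1 with a library left out. In EGR1OV against Sham the members called, 5, became 3 of 5 tested at a mean of at least 5 FPKM and 2 at 2-fold, and stayed at 5 with any library left out. The other pathway genes, 12, became 5 of 13 tested and 3 in the same settings, and were 11 to 12 with a library left out. In EGR1OV against H/R the members called, 6, became 3 at 2-fold and stayed at 6 with any library left out. The other pathway genes, 9, became 5 of 13 at 5 FPKM, 3 at 2-fold and 18 without a fold threshold, and were 8 to 10 with a library left out. With a pseudocount of 0.1 the difference in the log2 ratio of Ptges to Hpgd was 5.27 against Sham and 5.63 against H/R, and with voom the Hpgd change was -3.79 and -4.32. Where a cause is not plain from the setting, it was not tested.

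The titles share replicate numbers, but same-numbered libraries deviated together with correlations of only -0.195 to 0.263, so the numbers were not taken to pair them. A fit with the replicate block called 2, 5 and 6 members and 1, 12 and 9 other pathway genes, and it changed no member's call. Depth limits Ednra, Ednrb and, in EGR1OV, Hpgd, which rest on a few reads.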
